A study of Caenorhabditis elegans with 2 samples.

Results

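The regions described here are the ALY-1 ChIP-seq peaks of the early Caenorhabditis elegans embryo whose summit lay within 250 bp of a tRNA gene, where that nearest tRNA gene was not wholly inside the span of a protein-coding gene. By this positional rule, which used no signal, 221 of the 30000 candidate peaks called on the pooled replicates were members. They were nearest to 183 of the 322 nuclear tRNA genes that Ensembl places outside protein-coding genes, out of 612 nuclear tRNA genes in all; 145 of the 183 genes had 1 member and 38 had 2. The set closest to them, used below only for comparison, was the 237 candidate peaks at tRNA genes nested inside protein-coding genes.

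The study made 2 biological replicates of a single group. The worms were strain OP502, with the allele unc-119(tm4063) on chromosome III and the transgene wgIs502, from which ALY-1 is made with GFP and FLAG at its C-terminal end. Hermaphrodite early embryos were taken at 0 hours after synchronisation by egg bleaching, sonicated as whole organisms, and immunoprecipitated with an antibody to GFP. All embryonic cells are therefore pooled, the tagged protein came from a transgene, and no untagged or other strain is compared here. The peak lists hold no read counts, so depth is unknown; both replicates were called against the same control alignment, per the file listings. Each candidate carries a signal value from the submitters' peak caller, a score used here only to rank peaks inside a list, with rank 1 the strongest. The submitters' thresholded set, which passed the irreproducible discovery rate (a test of how well 2 ranked lists agree), held 881 peaks, which were the 881 strongest rows of the pooled list.

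RNA polymerase III reads tRNA genes from promoters that lie inside the gene. The general factor TFIIIC binds an A box near the 5′ end and a B box in the part that encodes the T arm, and places TFIIIB upstream; a run of T just after the gene ends transcription. Each gene is classed by the amino acid its tRNA carries (its isotype) and by its anticodon, and many genes exist as identical copies scattered over the genome. ALY-1 is a worm relative of Aly/REF, an adaptor protein known from other animals for loading polymerase II mRNAs onto the export machinery.

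The strongest member lay on a Leu gene with anticodon CAA, and the next on an Ile gene with anticodon TAT. Both are genes with an intron and no identical copy in the genome, and they are shown because they head the list. The Leu gene is set beside the other outside genes with its anticodon, which ranged from a thresholded peak to none, and the Ile gene beside its closest outside relative. Sequences are from the RefSeq WBcel235 assembly (the ce11 build), 5′ to 3′ on the coding strand, intron included. Capitals mark the A box and, further on, the B box, where the motif searched was found.

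C04A11.t1 (Leu, rank 5): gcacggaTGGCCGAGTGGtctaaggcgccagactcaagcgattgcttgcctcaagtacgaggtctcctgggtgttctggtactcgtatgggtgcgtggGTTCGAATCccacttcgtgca
ZK822.t1 (Leu, rank 456): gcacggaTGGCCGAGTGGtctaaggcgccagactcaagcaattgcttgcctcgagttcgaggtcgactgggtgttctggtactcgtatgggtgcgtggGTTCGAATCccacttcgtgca
F42F12.t1 (Leu, rank 1860): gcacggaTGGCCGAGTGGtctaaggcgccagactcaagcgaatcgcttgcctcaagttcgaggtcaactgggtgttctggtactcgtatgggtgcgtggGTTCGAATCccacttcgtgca
F02D10.t3 (Leu, no candidate peak): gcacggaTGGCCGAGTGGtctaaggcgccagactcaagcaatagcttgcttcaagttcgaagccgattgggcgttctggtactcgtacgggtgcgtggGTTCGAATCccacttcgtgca
F57F5.t1 (Ile, rank 18): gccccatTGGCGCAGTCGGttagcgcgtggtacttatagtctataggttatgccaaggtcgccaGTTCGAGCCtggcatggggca
C02B4.t1 (Ile, rank 29): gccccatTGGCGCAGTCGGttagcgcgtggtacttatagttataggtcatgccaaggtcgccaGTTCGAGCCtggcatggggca

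C04A11.t1 spans chrX:13665555-13665673 on the + strand and lay in a peak at chrX:13665413-13665773. Its summit was 12 bp inside the gene, with a signal value of 491, and the matched peaks ranked 4 and 7 in replicates 1 and 2. The lists hold that interval a second time, with a summit at its last base, signal 141 and rank 185. Counted in single-base substitutions, insertions or deletions, ZK822.t1 and F42F12.t1 each differed from C04A11.t1 by 5 and F02D10.t3 by 11, and all 4 genes carry the same A box and B box. ZK822.t1 had a thresholded peak (rank 456; 987 and 358 in replicates 1 and 2), whereas F42F12.t1 had only a weaker one (rank 1860; 4091 and 1902). No candidate summit lay within 250 bp of F02D10.t3 in the pooled list or in either replicate's list. F57F5.t1, at chrV:12002176-12002260, ranked 18 and 30 in replicates 1 and 2, with its summit 6 bp upstream of the gene. C02B4.t1, 2 changes away from F57F5.t1, ranked 35 and 24. The other 2 outside Ile genes with anticodon TAT, C36F7.t2 and C36F7.t3, each 28 changes away from F57F5.t1, had no candidate in the pooled list or in either replicate's list. Of the 3 nested TAT genes, 0 had a thresholded summit. Of the 3 nested Leu CAA genes, 2 had one: C14B9.t2 at rank 83 and B0285.t1 at rank 822. For both anticodons the outside genes thus ran from the top of the list to no peak.

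The largest set of identical Pro genes shows the same spread with no difference in the gene itself. This sequence, with anticodon TGG, is printed because it occurs 24 times in the genome. C16B8.t2, a Pro gene with anticodon AGG, is set beside it because it had the strongest Pro peak, and its sequence did not hold the B box motif as searched.

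ZK899.t1 and 23 further copies (Pro): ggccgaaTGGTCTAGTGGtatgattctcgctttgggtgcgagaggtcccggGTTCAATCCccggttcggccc
C16B8.t2 (Pro, rank 68): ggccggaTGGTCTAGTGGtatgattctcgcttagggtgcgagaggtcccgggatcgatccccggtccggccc

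Of the 13 copies outside protein-coding genes, 5 had a thresholded summit within 250 bp, 4 had a weaker candidate and 4 had none. The thresholded copies were ZK899.t1 (rank 82), T23F1.t2 (rank 157), H06A10.t1 (rank 205) and the neighbours F46G11.t1 and F46G11.t2, which share the peak at rank 539. The peak at rank 157 is also shared, and its summit lay nearer to the Lys gene T23F1.t1 than to T23F1.t2. F02H6.t1 reached only rank 1637, C48C5.t1 and C48C5.t3 shared a peak at rank 4485, and C16B8.t1 was at rank 19395. F23D12.t1, F23D12.t2, Y7A5A.t2 and Y7A5A.t3 had no candidate in the pooled list. The 11 nested copies of this sequence had 0 thresholded, 4 weaker and 7 absent. Short reads from the inside of identical genes cannot be assigned to 1 copy, so the share of 31-base words that occur once in the genome was taken around each gene as a measure of how far reads can be placed. It was 89.5% at ZK899.t1, 79.3% at T23F1.t2 and 89.3% at H06A10.t1, against 90% at F02H6.t1, 77.7% at F23D12.t1 and 78.0% at Y7A5A.t2. Among the 13 outside copies, the 4 with no candidate had the lowest values, 77.7% and 78.0%. The thresholded copies ran from 79.3% to 89.5% and the weaker ones from 79.7% to 90%. Nested copies did not follow this order, with 62.4% to 78.4% at the 4 weaker and 73.2% to 90% at the 7 absent. At the Ile TAT genes above, the share was 96.8% at F57F5.t1 and 94.9% at C02B4.t1. It was 79.8% at C36F7.t2 and 82.2% at C36F7.t3, which had no candidate. The Leu CAA genes went the other way, with 92% at C04A11.t1 and 95.8% at F02D10.t3, which had no candidate. The part of this share in the ranks was not tested, and the sources used here do not give the read length.

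The same mixture held for most repeated sequences. The 322 genes outside protein-coding genes had 130 distinct sequences, of which 42 occurred at least 2 times among them. In 32 of the 42, some copies had a thresholded summit and others did not. In 2 all copies had one, and in 8 none did. Over all 322 outside genes the share with one was 28.6%, and whether the mixture differs from what that share alone would give was not tested. The Lys gene with anticodon CTT, present in 25 identical copies, had 6 thresholded of 13 copies outside protein-coding genes, from W03G11.t1 at rank 25 to W10G11.t1 at rank 466. K11E4.t3, M163.t2 and Y105C5A.t1, with the same Lys sequence, had no pooled candidate. The Gly gene with anticodon TCC, in 29 copies, had 3 thresholded of 17 outside, led by F56C3.t1 at rank 76 and M02F4.t1 at rank 88. By copy number, a thresholded summit lay at 22.7% of genes with no identical copy (17 of 75; 95% interval 13.8 to 33.8), 38.1% of those with 2 to 5 copies (23.6 to 54.4), 25.9% with 6 to 10 (15.0 to 39.7) and 29.8% with 11 or more (22.6 to 37.8). These intervals overlap one another. All intervals given here are exact binomial (Clopper-Pearson) ones and cover counting error only.

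A larger share of the members than of candidates in general was in the thresholded set. The thresholded set held 86 of the 221 members, 38.9% (32.4 to 45.7), against 82 of the 237 peaks at nested tRNA genes, 34.6% (28.6 to 41.0), and 2.94% of all 30000 candidates. The intervals of the 2 kinds of tRNA gene overlap widely, and both lie far above the share of all candidates. The median rank of members was 1929, with quartiles 295 and 8245 and a range of 5 to 29325, against a median of 2663 at nested genes. The median signal value was 68.2 at members, 62.1 at nested genes and 33.4 over all candidates. The median −log10 q was 1.61 at members, 1.29 at nested genes and 0.218 over all candidates. The 86 thresholded members had a median rank of 172.5 (5 to 847) and the 135 weaker ones 6192 (931 to 29325), so the thresholded members sat mostly in the top part of the set. Members, which were 221 of all 30000 candidates, made up 22 of the 100 strongest, 34 of those ranked 101 to 300 and 30 of those ranked 301 to 881. These counts are 22%, 17% and 5.16%. Peaks at nested tRNA genes had a like profile, with 25, 31 and 26 peaks in the same ranges, or 25%, 15.5% and 4.48%. The last thresholded member, at the Thr gene F11H8.t1, had rank 847 and signal 86.5, and the first one outside, at the Thr gene T25B6.t2, rank 931 and signal 83.9. Their replicate ranks, 1205 and 1226 for F11H8.t1 against 1404 and 1154 for T25B6.t2, were as close.

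Counted by gene, 92 of the 322 tRNA genes outside protein-coding genes, 28.6% (23.7 to 33.8), had a thresholded summit within 250 bp. The share was 26.6% of nested tRNA genes (77 of 290; 21.6 to 32.0), 2.45% of all 46890 annotated nuclear genes and 2.66% of protein-coding genes. A candidate of any rank lay at 61.2% of the outside genes (55.6 to 66.5) and at 67.6% of nested ones (61.9 to 72.9), and 125 outside genes had none. The 881 strongest peaks of each replicate, where the background is again 2.94% of candidates, gave summits at 83 of the 322 genes in replicate 1 and 94 in replicate 2, with 73 genes found in both.

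Every one of the 20 standard isotypes had at least 1 gene outside protein-coding genes with a thresholded summit, as the plot of ranks by isotype shows. The same held for nested tRNA genes. The isotypes with the most such genes were Glu with 10 of 29, Pro with 9 of 20, Leu with 8 of 19 and Lys with 8 of 20. Asn had 1 of 8, Phe 1 of 8, Trp 1 of 5 and Gln 1 of 15. These fractions rest on small numbers of genes, and genes of 1 isotype are often identical copies. A peak within 250 bp of 2 genes counts for both, also where their isotypes differ. By thresholded members, each counted at its nearest gene only, Leu had 9, Ala 8, Glu, Lys, Arg and Gly 7 each, and Pro 6. For Pro, 9 of 20 outside genes but 1 of 22 nested genes had a thresholded summit. For Glu it was the reverse, with 10 of 29 outside against 6 of 12 nested, as for His with 2 of 13 against 3 of 7. The share was higher outside for 9 isotypes and higher at nested genes for 11. The strongest member of each isotype ranked between 5 (Leu) and 613 (His, at Y7A9D.t1, which ranked 1301 and 498 in replicates 1 and 2).

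**Figure D1:**
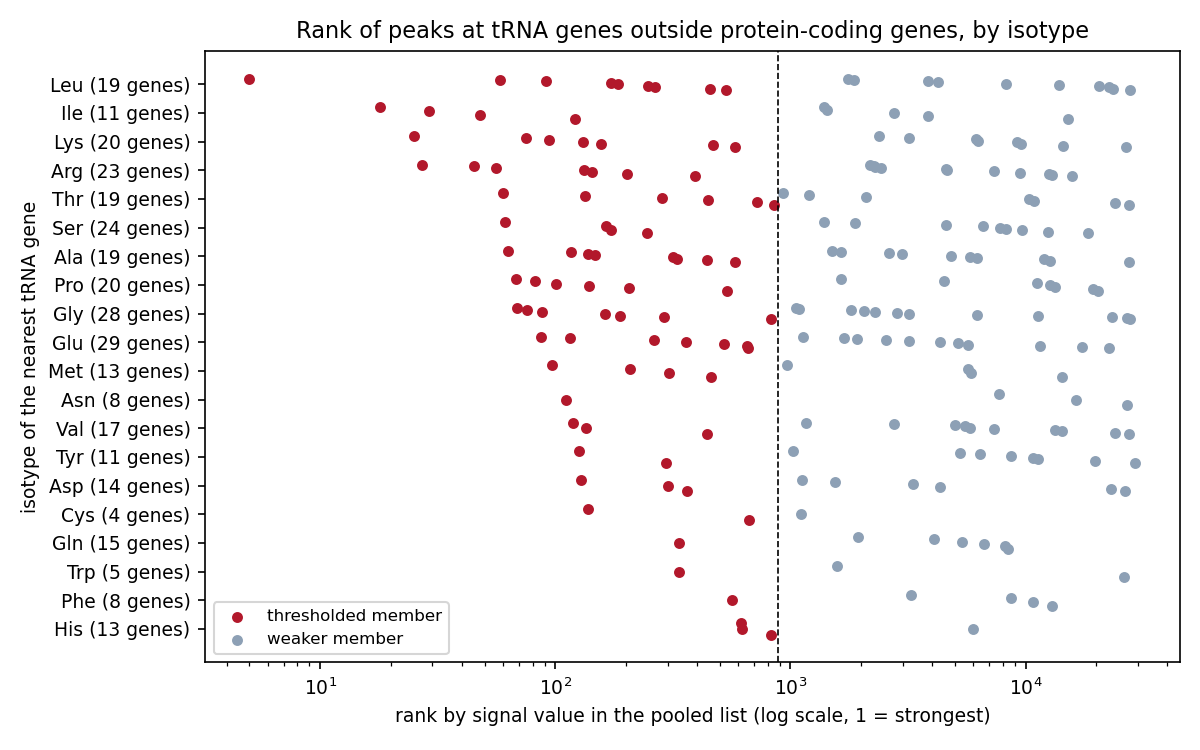
Rank of each of the 221 members in the pooled list (x, log scale) by the isotype of the nearest tRNA gene (y, with the number of genes outside protein-coding genes), where each point is a peak and the dashed line marks the 881 thresholded peaks. Every isotype has at least 1 point left of the line, and Leu, Ile, Lys and Arg hold the 4 strongest.

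After these Leu and Ile genes, the strongest members were at Lys and Arg genes. W03G11.t1 (Lys, chrX) ranked 25, with signal 302 and replicate ranks 10 and 55. F56F3.t1 (Arg, chrIII) ranked 27, with signal 300 and replicate ranks 24 and 28. F35H8.t1 (Arg, chrII) ranked 45 and C42D8.t1 (Ile, chrX) 48, with replicate ranks of 64 and 34 and of 33 and 46. All 4 summits lay inside the gene. The next members were at F28H6.t1 (Arg, rank 56), W02H3.t1 (Leu, 58), R01H5.t1 (Thr, 60), C53C7.t2 (Ser, 61), T07H6.t2 (Ala, 63), C16B8.t2 (Pro, 68), F10C1.t1 (Gly, 69), C33G3.t2 (Lys, 75) and F56C3.t1 (Gly, 76). ZK899.t1 (Pro, 82), F12D9.t2 (Glu, 87), M02F4.t1 (Gly, 88) and ZK678.t1 (Leu, 91) followed. Other isotypes were led by C14B9.t1 (Met, rank 97), F52H2.t2 (Asn, 111), R04D3.t2 (Val, 119), R11.t1 (Tyr, 126), F41A4.t1 (Asp, 129) and F42D1.t1 (Cys, 138). The leading peaks of the remaining isotypes were weaker: T03E6.t1 (Gln) ranked 334, rtw-5 (Trp) 335 and Y39B6A.t9 (Phe) 563.

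Gln was the isotype with the lowest share among outside genes. Its thresholded gene, T03E6.t1, has anticodon CTG; the 11 outside genes with anticodon TTG had none in the thresholded set, and the best of them, D1009.t1, ranked 1929. The 2 sequences below, T03E6.t1 and the TTG gene C06E4.t1, are shown because both hold the A box and B box (capitals, as before) while C06E4.t1 had no peak.

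T03E6.t1 (Gln, rank 334): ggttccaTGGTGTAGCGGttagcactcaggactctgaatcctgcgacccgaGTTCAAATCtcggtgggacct
C06E4.t1 (Gln, no candidate peak): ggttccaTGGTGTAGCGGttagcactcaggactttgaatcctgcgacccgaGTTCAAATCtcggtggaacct

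T03E6.t1 lies at chrV:16592237-16592308 on the − strand and ranked 288 and 667 in replicates 1 and 2. C06E4.t1 had no summit within 250 bp in either replicate's list. Of the 15 outside Gln genes, 7 had a weaker candidate and 7 had none. The C06E4.t1 sequence is not without peaks elsewhere: its identical nested copies R04A9.t1 and Y49E10.t1 ranked 93 and 271, above T03E6.t1.

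Over all outside genes, the letters of the internal promoter were found in most genes of every class. The A box share was lowest in genes with no candidate, with overlapping intervals. The A box was found in the first 30 bases of 94.6% of the 92 genes with a thresholded summit (87.8 to 98.2), 94.3% of the 105 with a weaker one (88.0 to 97.9) and 85.6% of the 125 with none (78.2 to 91.2). The A box match was missing from 20 of the 24 outside Ser genes, against 9 of the 298 other outside genes. C53C7.t1, a Ser gene without a match, reads tgtccgagtgg near its 5′ end, which departs from the pattern only by a T in place of a G. A missing match therefore does not show that an A box is absent. The leading Ser member, at C53C7.t2, ranked 61. The B box, searched as GTTCNANNC inside the gene on the coding strand, was found in 94.6%, 99% and 93.6% of the 3 classes, and a run of 4 T in the 30 bases after the gene in 98.9%, 100% and 96.8%. An intron was annotated in 6.52% of the genes with a thresholded summit, 5.71% with a weaker one and 4.00% with none. In the 300 bases centred on the summit, on either strand, the B box motif occurred at 95.3% of thresholded members (88.5 to 98.7) and 73.3% of weaker members (65.0 to 80.6). Without the 30 weaker members that overlapped a thresholded peak, the weaker share was 84.8% (89 of 105; 76.4 to 91.0), and the 2 intervals overlap. It occurred at 78.1% of peaks at nested tRNA genes, 12% of all candidates and 13.9% of thresholded peaks away from any tRNA gene. Members lie near a tRNA gene by rule, and 95.7% of outside genes hold the motif. Their high share against all candidates therefore follows from the selection. A summit further from the gene also leaves less of the gene in the window. The median distance was 5.5 bp for thresholded and 35 bp for weaker members. A match is a description of letters, not of a factor bound there.

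Summits inside or within 50 bp of the gene were more frequent among thresholded members than among weaker ones. Of the 86 thresholded members, 39 had the summit inside the gene (45.3%, 34.6 to 56.5), 26 upstream and 21 downstream. Of the 135 weaker members, 44 had it inside (32.6%, 24.8 to 41.2), 47 upstream and 44 downstream. The summit was inside or within 50 bp of the gene for 87.2% of thresholded members (78.3 to 93.4) and 54.1% of weaker ones (45.3 to 62.7), 2 intervals that do not overlap. Part of this came with flanking peaks: 30 weaker members overlapped a thresholded peak, at 26 to 239 bp from the gene, and 0 of them had the summit inside it. Without these 30, the weaker share within 50 bp was 65.7% (69 of 105; 55.8 to 74.7), still below the thresholded interval, and the share inside the gene was 41.9% (32.3 to 51.9), close to the 45.3% of thresholded members. Measured from the 5′ end in the direction of transcription, the median position was 15.5 bp for thresholded members (−81 to 303) and 22 bp for weaker ones (−241 to 310), beside a median gene length of 72 bp. The upstream and downstream sides were thus used about equally. At nested tRNA genes, 58.5% of thresholded summits (47.1 to 69.3) lay inside the gene. Most members had a width of 484 bp, the standard in these lists. All 13 narrower ones, 121 to 361 bp wide, were thresholded, and they lay at genes named above for the strongest ranks. Other thresholded peaks shared this trait. The standard width was found in 84.9% of thresholded members, 86.6% of thresholded nested peaks and 91.8% of the whole thresholded set. Without regard to the threshold it was 94.1% of members, 95.4% of nested peaks and 99.8% of all candidates.

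**Figure D2:**
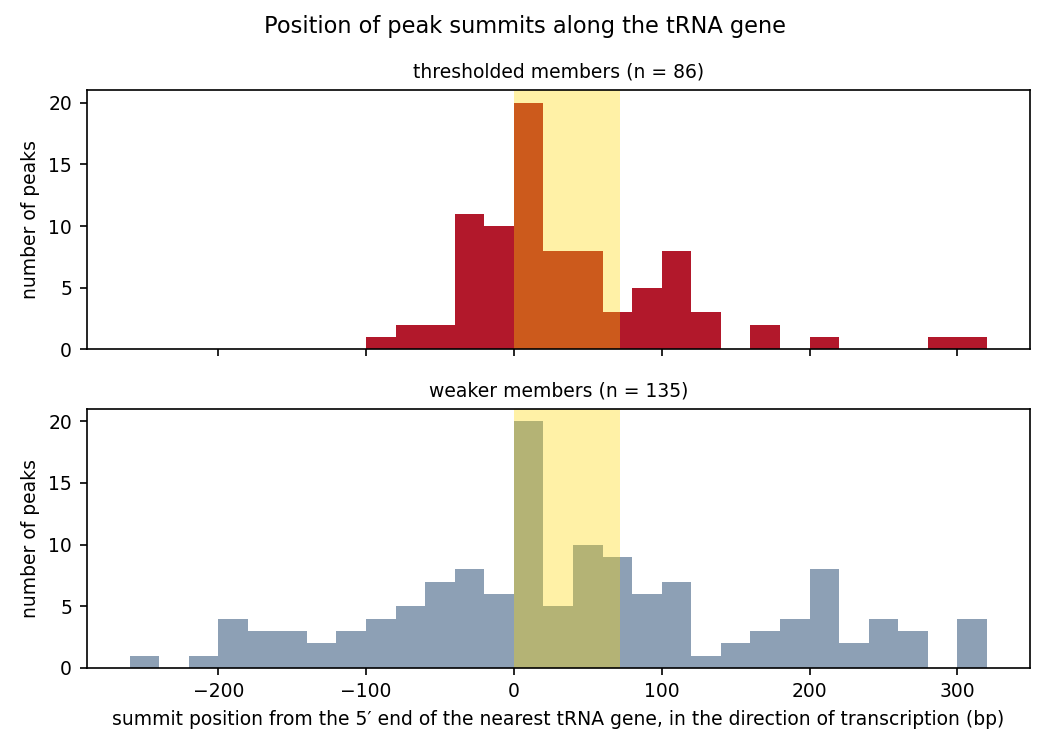
Number of member summits (y) by position relative to the 5′ end of the nearest tRNA gene in the direction of transcription (x, bp), for 86 thresholded members (top) and 135 weaker members (bottom), with the median gene length of 72 bp shaded. The thresholded summits gather over the gene and its edges, whereas weaker summits, 30 of which belong to peaks overlapping a thresholded one, spread out to the 250 bp limit on both sides.

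F10C1.t1 was an exception among the strongest members: its summit, at rank 69, lay 227 bp downstream of the Gly gene, in the promoter window of the protein-coding gene K05F1.6. A promoter window here runs from 1000 bp upstream to 200 bp downstream of an annotated 5′ end. It held the summits of 64 members, 29.0% (23.1 to 35.4), against 8.02% of peaks at nested tRNA genes (4.90 to 12.2), whose surroundings are gene bodies by definition, and 25.5% of all candidates. Among thresholded members it was 26 of 86, 30.2% (20.8 to 41.1), against 28.1% of weaker members (20.8 to 36.5) and 37.9% of the whole thresholded set (34.7 to 41.2). The 95% interval of the thresholded members reaches both other values.

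Some of these promoters belong to genes with known roles. The peak at F57F5.t1 (rank 18) lay in the windows of gcy-33, which encodes a guanylate cyclase, and cpr-9, a cathepsin B-like protease; their nearest 5′ end was 379 bp from the tRNA gene. That at T07H6.t2 (rank 63) lay in the windows of lev-9, needed to cluster acetylcholine receptors, and mom-1, a Porcupine relative needed for Wnt secretion. The window of nhr-255, a nuclear hormone receptor gene, held the peak at ZK678.t1, and that of F28H6.7 the peak at F28H6.t1. In all, 5 thresholded members lay in the windows of at least 2 genes. A polymerase III and a polymerase II promoter cannot be told apart at these sites from peak positions alone. By gene, 31.7% of tRNA genes with a protein-coding 5′ end within 1000 bp (32 of 101; 22.8 to 41.7) had a thresholded summit, against 27.1% of those without one (60 of 221; 21.4 to 33.5). The nearest 5′ end was on the opposite strand for 47.8% of the thresholded, 48.6% of the weaker and 44.8% of the tRNA genes with no candidate. Other small RNA genes were rare: 2 members had one within 250 bp, and 1 of these was thresholded, at M01E5.t1 beside the spliced leader gene sls-2.9. No member had a snoRNA gene within that distance.

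tRNA genes outside protein-coding genes stood mostly alone or in pairs. With genes joined where at most 1000 bp lay between them, 174 were single and 148 fell into 68 clusters. A thresholded summit lay at 34.5% of single genes (60 of 174; 27.5 to 42.1), 26.5% of genes in pairs (27 of 102; 18.2 to 36.1) and 10.9% of genes in clusters of 3 or more (5 of 46; 3.62 to 23.6). The intervals of single genes and of the largest clusters do not overlap. Genes of 1 cluster are not independent of each other. Counted by locus, with a cluster as 1, the shares were 34.5%, 32.1% (17 of 53) and 20% (3 of 15; 4.33 to 48.1), and these intervals overlap. The share of unique 31-base words also differed between these classes but not in the order of cluster size, with a median of 89.9% at single genes, 83.9% in pairs and 87.6% in larger clusters. With genes under 90% unique words left out, the shares of genes were 37.2% (32 of 86; 27.0 to 48.3), 17.6% (6 of 34; 6.76 to 34.5) and 14.3% (1 of 7; 0.361 to 57.9).

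The largest clusters held few strong peaks. The 6 genes F22F1.t2 to F22F1.t7 on chromosome X, of isotypes Ser, Asp, Met and Ile, had no thresholded summit; their best candidate, at F22F1.t6 (Met), ranked 971 in the pooled list and 3601 and 805 in replicates 1 and 2. The 6 His genes F28H6.t2 to F28H6.t7, also on X, had a best rank of 5950. Among the 4 clusters of 4 genes, R11.t1 (Tyr) ranked 126, with 103 and 177 in replicates 1 and 2, while R11.t3 and R11.t4 were at 29325 and 10770 and R11.t2 had no candidate. Y65A5A.t1 to Y65A5A.t4 (Ala, Ala, Val and His) had thresholded members at both ends, at ranks 148 and 582 for Y65A5A.t1 and 826 for Y65A5A.t4. C12C8.t2 to C12C8.t5 (Gly) and T01B4.t1 to T01B4.t4 (Val) had no thresholded summit, with best ranks of 2289 and 5519. Of the clusters of 3 genes, only C16B8.t1 to C16B8.t3 (Pro) had a thresholded peak, a single one at rank 68 between C16B8.t2 and C16B8.t3.

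**Figure D3:**
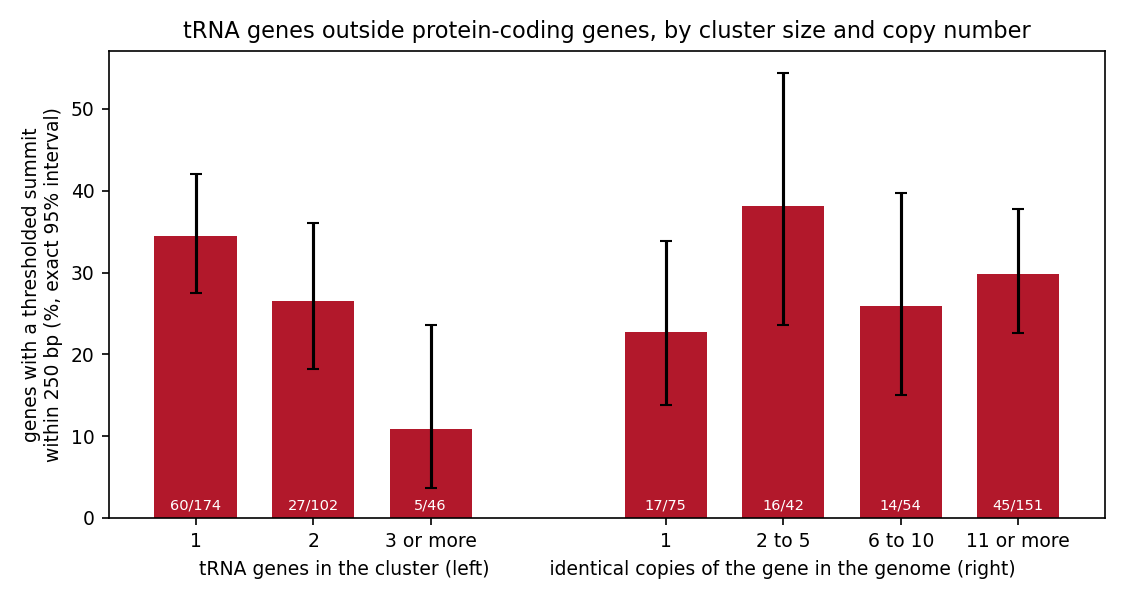
Percentage of tRNA genes outside protein-coding genes with a thresholded summit within 250 bp (y, bars with exact 95% intervals and counts at the base), by the number of genes in the cluster (left) and by the number of identical copies in the genome (right). The share is 34.5% at single genes and 10.9% in clusters of 3 or more, and shows no steady order with copy number.

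A larger share of the tRNA genes outside protein-coding genes than of nested ones was on the X chromosome: 55.9% of them (180 of 322; 50.3 to 61.4), against 33.1% of nested ones (27.7 to 38.8). Accordingly 52.9% of members were on X, against 31.6% of peaks at nested genes and 17.2% of all candidates. The share of genes with a thresholded summit was 27.8% for outside genes on X (50 of 180; 21.4 to 34.9) and 29.6% on autosomes (42 of 142; 22.2 to 37.8), with overlapping intervals. Single autosomes ranged from 16.7% on V (5 of 30) to 50% on II (13 of 26; 29.9 to 70.1), with wide intervals; on II the nested genes were at 22.6% (7 of 31; 9.59 to 41.1).

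**Figure D4:**
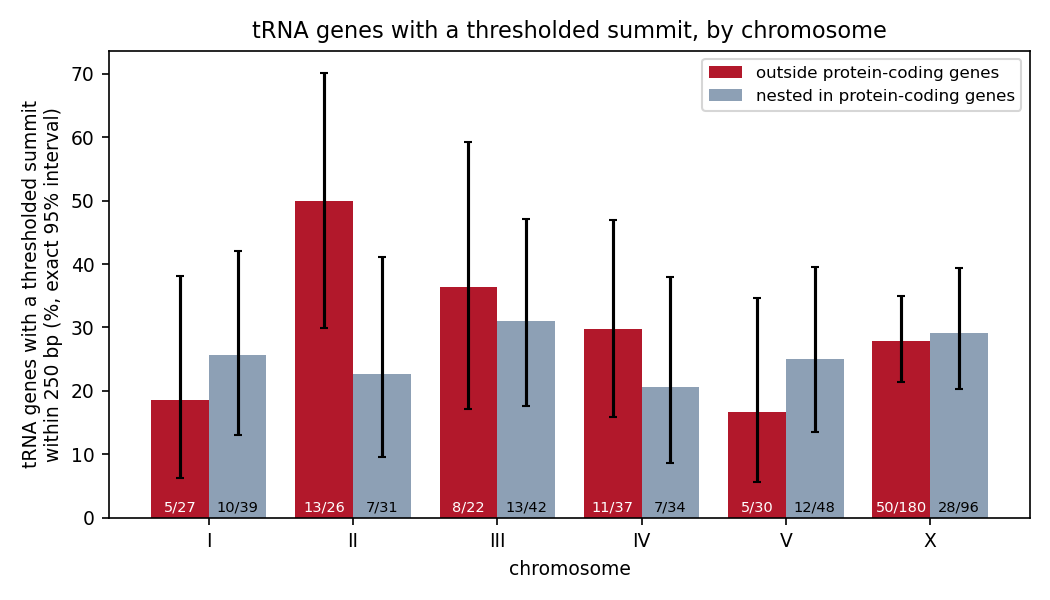
Percentage of tRNA genes with a thresholded summit within 250 bp (y, exact 95% intervals, counts at the base) on each chromosome (x), for genes outside protein-coding genes (left bar of each pair) and nested in them (right bar). The intervals of the 2 kinds of gene overlap on all 6 chromosomes, and X stands at 27.8% for outside genes and 29.2% for nested ones.

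The replicate lists held a peak at most members. A peak overlapping by at least 1 base was found in both replicate lists for 201 of 221 members, 91.0% (86.4 to 94.4), against 90.7% of peaks at nested genes and 60.8% of all candidates. All 86 thresholded members had one, as did all 881 peaks of the thresholded set. That set came from a comparison of the replicate lists, but its peaks are the 881 strongest pooled rows. Their matched ranks reached 26513 in replicate 1 and 8568 in replicate 2. With the replicate summit required within 100 bp of the pooled one, the share was 71.5% of members (65.1 to 77.3), 66.2% of nested and 32.9% of all candidates. Across the members with an overlapping peak in both lists, Spearman's rho between the replicate ranks was 0.86 (n = 201), 0.76 among thresholded members (n = 86) and 0.64 among weaker ones (n = 115). With summits within 100 bp it was 0.77 among thresholded members (n = 80) and 0.17 among weaker ones (n = 78). These are descriptions across peaks of the same 2 libraries, and peaks are not replicates. The overlap lends weak members the ranks of strong neighbours: 30 of the 135 weaker members overlapped a thresholded peak, and these included all 26 weaker members matched to the 881 strongest peaks of both replicates.

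**Figure D5:**
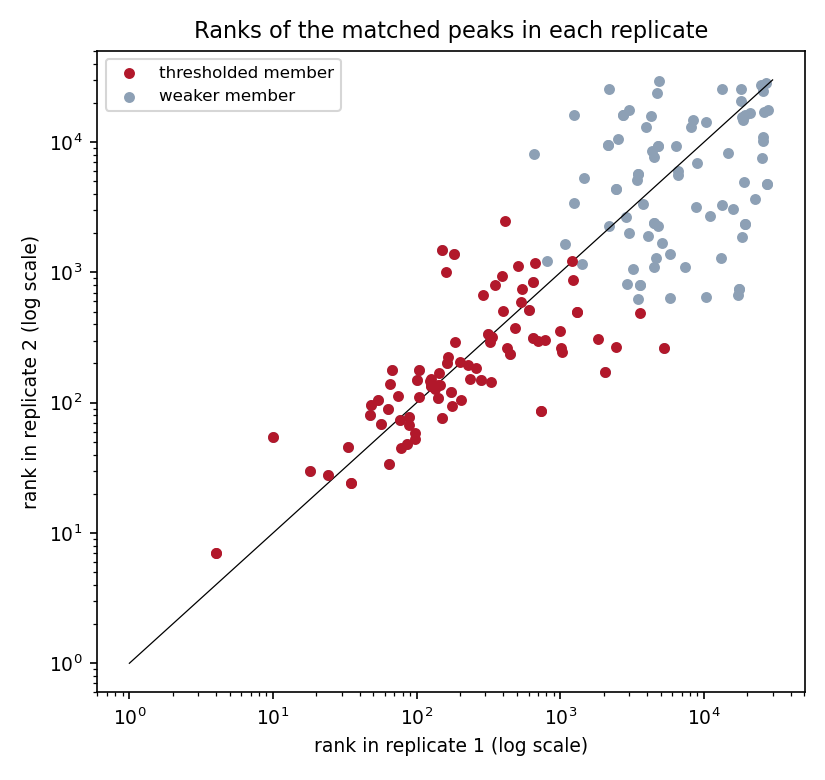
Rank of the strongest overlapping peak in replicate 1 (x) and replicate 2 (y), both on log scales, for the 201 members with a match in both lists, where the line marks equal ranks. Thresholded members follow the line with few exceptions, weaker members spread widely beyond rank 1000, and the points of weaker members that share both replicate peaks with a thresholded member lie hidden under its point.

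Of the 86 thresholded members, 67 matched one of the 881 strongest peaks in both replicates, 7 in replicate 1 alone, 11 in replicate 2 alone and 1 in neither. The share matched in both was 77.9%, against 75.6% of thresholded peaks at nested genes (62 of 82) and 54.4% of the whole thresholded set (479 of 881). The 3 with the most unequal ranks were at F46G11.t2 (Pro), C04E7.t1 (Leu) and Y54G2A.t3 (Asp). F46G11.t2, at pooled rank 539, ranked 5303 in replicate 1 and 264 in replicate 2. C04E7.t1, at pooled rank 265, ranked 2032 and 173, and Y54G2A.t3, at pooled rank 302, ranked 151 and 1486. The first 2 thus rest mainly on replicate 2 and Y54G2A.t3 on replicate 1.

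The genes for the polymerase III machinery were looked up as a list. Of 16 listed genes (subunits, TFIIIB and TFIIIC parts, and regulators or export factors of tRNA), 15 were found in the annotation, 7 had a candidate summit within 250 bp and 0 had a thresholded one, beside 51.4% of protein-coding genes with a candidate and 2.66% with a thresholded summit. With 15 genes, neither count stands apart from these shares. The best was snpc-4, a small nuclear RNA activating complex subunit, at rank 2447, followed by xpo-3, the tRNA exportin, at rank 5059. Candidates at rpc-1 and rpc-2, the largest polymerase III subunits, ranked 21397 and 12686.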

How the data were processed

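Per the labels, 2 biological replicates of 1 group were sequenced. Per the file listings, the authors deposited ce11 candidate lists for each replicate and for both pooled, called as input for the irreproducible discovery rate against 1 control alignment, and an optimal thresholded set; no source used here names the caller, aligner, read filters or read length. In the deposited narrowPeak lists the signal value (column 7) is a score with no stated normalization, used here only for ranks within a list, and column 9 is −log10 of a q-value. Depth is unknown.

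A summit is column 2 plus column 10. Genes are from Ensembl release 115 for WBcel235, and names, isotypes and sequences from RefSeq; 607 of 612 tRNA genes matched an isotype. Anticodons were read from the predicted stem-loop that decodes to the annotated isotype, found for 315 of 322 outside genes. The A box was searched by a degenerate pattern, TRGYNNAR followed closely by GG, where R is A or G, Y is C or T and N is any base. Promoter windows covered 1000 bp before to 200 bp after an annotated 5′ end, clusters joined gaps of at most 1000 bp, replicate peaks matched by at least 1 base, and 31-base words were counted over the gene and 250 bp on each side. Intervals are exact 95% ones; no p-value was computed, since the design has 1 group. Position functions were tested on simulated data. The members and lists were chosen with earlier results of these data known. Genes named are the nearest to the 20 strongest members, the best per isotype, the 3 with the most unequal replicate ranks, those of the largest clusters and those at the threshold; F10C1.t1, C16B8.t2 and the copies of repeated genes were singled out after their values were seen. Alternatives varied the distance, annotation, nesting rule, threshold, matching, gap, window and replicate. Analyses used Python 3.11.15, pandas 2.3.3, NumPy 2.4.6 and SciPy 1.17.1.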

Additional observations from a re-analysis of the deposited data

How the results depend on the processing

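Of 37 alternative values for 7 results, 25 stayed inside the main value's 95% interval (for the median rank, within the SD of the 2 replicate lists). The share of members in the thresholded set, 38.9%, was 47.7% with a distance of 100 bp, 46.0% with overlapping members merged and 29.9% with only the stronger 440 thresholded peaks, which also lowered the share of tRNA genes with a thresholded summit to 22.7%. At 100 bp the median rank was 1070 and the share of summits inside the gene 47.7%; the smaller distance drops members far from the gene by construction. Members with a peak in both replicates were 71.5% with summits within 100 bp. Clustered members were 22.2% and 52.5% with gaps of at most 500 and 5000 bp, and members in promoter windows 15.4% and 46.6% with windows of 500 bp upstream to 100 bp downstream and 2000 bp upstream to 200 bp downstream; wider limits take in more by construction. With each replicate's list alone, the thresholded share ran from 36.5% to 40.2%, the gene share from 25.8% to 29.2%, the median rank from 1878 to 2862, summits inside the gene from 32.2% to 36.2%, clustered members from 33.2% to 34.8% and members in promoter windows from 30.3% to 30.4%. RefSeq tRNA genes, tried for the member share, the gene share and the median rank, gave the same 3 values. Leaving out the weaker members that overlap a thresholded peak, an alternative chosen after seeing the data, put the share of summits inside the gene at 43.5%. No paired analysis was possible because the study has 1 group. Without read counts, weak and absent peaks cannot be weighed against depth, and reads inside identical tRNA genes may not have been placed; neither was tested.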
